A study of Caenorhabditis elegans with 2 samples.

Results

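The genes described here encode the machinery that copies DNA and the kinases, cyclins and phosphatases that move a cell from G1 through S phase into mitosis. They are 56 named genes of Caenorhabditis elegans, out of the 19973 protein-coding genes of the annotation. They were chosen by name, with earlier results of these data known. By the roles of their products they fall into 30 genes of the replication machinery, 17 mitotic regulators, 7 regulators of G1 and S phase and the 2 cdc-48 genes. Chromatin immunoprecipitation followed by sequencing (ChIP-seq) recovered DNA with the protein of Y48G9A.11 from whole L4 larvae aged 47.5 hours, in 2 biological replicates. The worms were strain RW12291, whose allele st12291[Y48G9A.11::TY1::EGFP::3xFLAG] on chromosome III is a CRISPR insertion at Y48G9A.11 itself, and they had been synchronised by bleaching and by starvation as L1 larvae. The antibody was raised against GFP. All animals carried the tag, and no library from untagged animals or from animals with another tagged protein was analysed here. Recovery specific to the Y48G9A.11 protein and general recovery of busy promoters therefore cannot be told apart at any of these genes. With whole animals, binding in few cells and weak binding in many cells cannot be told apart either.

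Before a cell can replicate its DNA, the origin recognition complex, CDC-6 and CDT-1 load the MCM helicase onto origins, a step called licensing. In S phase the helicase opens the DNA, primase and the polymerases copy it, the clamp PCN-1 holds the polymerases on it, and RPA coats the single strands. Cyclin-dependent kinases drive these transitions, with cyclins D and E acting into S phase and cyclins A and B into mitosis. In L4 larvae most dividing cells are in the growing germ line, with some further divisions in the vulva and the somatic gonad. Many C. elegans transcripts are trans-spliced, so that the annotated 5' end of a gene can lie downstream of the place where transcription starts.

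The sequences at the summits of 7 peaks are printed as examples. They were picked by signal or by a sequence match, so they are not a typical sample of the member peaks. The strongest peaks of which the sequence can be shown are those of cdc-48.1, pcn-1, the pair orc-5 and cyb-1, and mcm-2. Those of rpa-1 (signal 123.2), cdk-1 (112.8) and wee-1.3 (102.6), among the weaker member peaks, are shown because they hold an E2F-type sequence. Each runs 5' to 3' on the strand of the named gene, spans 50 bases on either side of the summit, and comes from the RefSeq sequence of WBcel235, the assembly that ce11 names. Capitals mark matches to the sequences searched for.
cdc-48.1, chrII:10563522-10563622, minus strand: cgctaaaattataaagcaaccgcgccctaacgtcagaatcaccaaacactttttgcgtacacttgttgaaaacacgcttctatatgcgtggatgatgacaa
pcn-1, chrIV:4049645-4049745, minus strand: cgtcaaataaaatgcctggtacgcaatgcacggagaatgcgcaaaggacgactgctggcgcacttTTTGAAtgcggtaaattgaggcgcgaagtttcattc
orc-5 and cyb-1, chrIV:10734678-10734778, minus strand (that of orc-5): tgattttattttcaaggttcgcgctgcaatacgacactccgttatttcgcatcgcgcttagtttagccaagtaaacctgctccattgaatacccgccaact
mcm-2, chrII:12006853-12006953, minus strand: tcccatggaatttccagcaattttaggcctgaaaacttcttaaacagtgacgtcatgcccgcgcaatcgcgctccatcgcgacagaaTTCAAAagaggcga
rpa-1, chrII:7664025-7664125, plus strand: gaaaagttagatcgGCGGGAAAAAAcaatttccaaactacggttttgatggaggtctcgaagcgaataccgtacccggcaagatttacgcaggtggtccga
cdk-1, chrIII:9746839-9746939, plus strand: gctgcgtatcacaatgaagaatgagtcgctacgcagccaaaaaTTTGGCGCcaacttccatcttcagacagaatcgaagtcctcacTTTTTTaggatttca
wee-1.3, chrII:9716719-9716819, minus strand: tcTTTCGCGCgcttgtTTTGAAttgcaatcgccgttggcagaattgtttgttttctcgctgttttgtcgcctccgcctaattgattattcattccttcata

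The sequences searched for, on both strands, were 4 E2F-type octamers (TTTCCCGC, TTTGGCGC, TTTGCCGC and TTTCGCGC), the cell cycle homology region TTTGAA, the CCAAT box, the GC box GGGCGG, the repeat GAGAGA and the run TTTTTT. An E2F-type octamer lay within 50 bases of the summit at 4 of 16 member peaks (25.0%), those of rpa-1, cdk-1, wee-1.3 and the primase gene pri-2. Among all 985 main peaks in the windows of protein-coding genes, 82 (8.32%) held it. TTTGAA was found at 6 of 16 (37.5%) against 23.2%, and TTTTTT at 5 of 16 (31.2%) against 28.8%. The CCAAT box, the GC box and the GAGA repeat were each found at 1 member peak (6.25%), against 17.7%, 5.18% and 10.1%. At rpa-1 the E2F-type octamer overlaps a run of the TTTTTT kind on its other strand. The sequences searched for were also chosen with earlier results of these data known. These shares were not tested, and a match does not show a site. Over the same bases, the median G and C content was 44.1% (35.6% to 60.4%) at member peaks and 45.5% at the 985 peaks.

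Peaks were found at 17 of the 56 genes (30.4%), at 10 genes of the replication machinery, 6 mitotic regulators and cdc-48.1, and at none of the 7 regulators of G1 and S phase. A gene is counted where the summit of a peak in the authors' thresholded list of both replicates, called the main list here (2228 peaks), fell in the window from -1000 to 200 bp around its annotated 5' end. By the same count 1225 of all 19973 protein-coding genes (6.13%) had a peak. Among genes with at least 1 candidate peak in the window, in the authors' ranked list of both replicates, the share was 17 of 51 members (33.3%) and 10% of 12212 protein-coding genes. As orc-5 and cyb-1 share a peak, the 17 genes had 16 distinct strongest peaks. The signal value of a peak is a score from the authors' own processing, and no source says in what unit. Its median was 267.6 over the 17 genes (102.6 to 617.6) and 158.2 over the 1225 genes. With each peak counted once, it was 230.3 over the 16 strongest member peaks. Over all 985 main peaks in protein-coding windows it was 145.7. Thresholds rest on the irreproducible discovery rate (IDR), which compares the ranks of peaks between 2 lists, and a listed peak has an IDR of 0.01 or less.

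Among the genes that license origins, 3 of 13 (23.1%) had a peak, against 6.13% of all protein-coding genes. The gene cdt-2 encodes the substrate receptor of the ubiquitin ligase that removes CDT-1 during S phase, and its peak (chrV:14990949-14991133) had a signal of 392.1 in the pooled list, 176.5 in replicate 1 and 220.4 in replicate 2. Its summit lay 75 bp downstream of the annotated 5' end, inside the gene's UTR, and at -117 bp from the divergent gene T01C3.2. A second, weaker main peak (signal 126.9) lay at -558 bp from cdt-2. The origin recognition subunit gene orc-5 had a signal of 341.3, with 190.1 in replicate 1 and 169.8 in replicate 2 (chrIV:10734640-10734798). That summit lay at -140 bp from orc-5 and at -488 bp from cyb-1, which is transcribed away from it. At mcm-2, a helicase subunit, the signal was 285.3, with 123.2 in replicate 1 and 162.0 in replicate 2 (chrII:12006807-12006929), and the summit at -278 bp lay in the window of no other gene. All 3 of these peaks were in the thresholded list of each replicate. The other MCM genes, mcm-3 to mcm-7, had no main peak, and their strongest candidates ranged from 40.5 at mcm-4 to 53.4 at mcm-5, while mcm-6 had no pooled candidate. The loaders cdc-6 (63.3) and cdt-1 (41.7), the origin recognition genes orc-1 (77.5) and orc-2 (64.9), and gmn-1 (85.9), which encodes the CDT-1 inhibitor geminin, had candidates below the threshold. Of the MCM helicase genes measured, mcm-2 was thus the only one with a main peak.

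Genes of the replication fork had a peak at 7 of 15 (46.7%), against 6.13% of all protein-coding genes. The strongest of all member peaks was at rpa-2, a subunit of the single-strand binding complex RPA, with a signal of 617.6 and rank 67 in the main list, from 277.2 in replicate 1 and 325.4 in replicate 2. Its summit lay at -638 bp from rpa-2 and at -591 bp from the lincRNA gene M04F3.7, and 59.1% of the 36-base words around it occur elsewhere in the genome, so its value is uncertain. The gene of the other RPA subunit measured, rpa-1, had a lower signal of 123.2 (68.88 in replicate 1 and 62.00 in replicate 2) at -507 bp, nearer to the divergent gene F18A1.7 at -321 bp. The sliding clamp gene pcn-1 had a signal of 346.8 (chrIV:4049611-4049771) at -247 bp, in no other gene's window. Its replicates were 119.7 and 233.0, the widest spread among replication genes, with replicate 2 higher by 1.95 times. The gene of the large primase subunit, pri-2, had 285.0, with 136.4 in replicate 1 and 141.6 in replicate 2. Its values in the replicates were close, yet the peak was missing from the thresholded list of replicate 1.

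The remaining fork genes with a peak were rfc-4, lig-1 and pole-1. The clamp loader gene rfc-4 had 193.1 (74.37 in replicate 1 and 110.8 in replicate 2) at -140 bp, in a space of 541 bp that it shares with the divergent translation elongation factor gene eef-1A.1, for which the summit lay at -401 bp. The 5' end nearest to that summit is that of the miRNA gene cel-mir-5549, for which it lay at -28 bp. The ligase gene lig-1 had 124.5 (51.96 and 64.78) at -519 bp, and its summit was nearer to the divergent gene C29A12.1, at -100 bp. Of the 36-base words at the lig-1 summit, 34.8% occur elsewhere in the genome. The catalytic subunit gene of DNA polymerase epsilon, pole-1, had 117.5 (57.80 and 53.03) at -165 bp. The peaks of rpa-1, lig-1 and pole-1 were in the thresholded list of replicate 1 and not in that of replicate 2, though replicate 2 had candidates at all 3 with signals like those of replicate 1. The GINS genes psf-1 (77.6), psf-2 (51.0) and psf-3 (34.9), the polymerase alpha subunit gene div-1 (57.3), the small primase gene pri-1 (62.0) and the clamp loader genes rfc-1 (39.3), rfc-2 (85.8) and rfc-3 (64.3) had candidates only. So did both genes of ribonucleotide reductase, which makes the precursors of DNA, with 79.4 at rnr-1 and 63.7 at rnr-2.

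**Figure D1:**
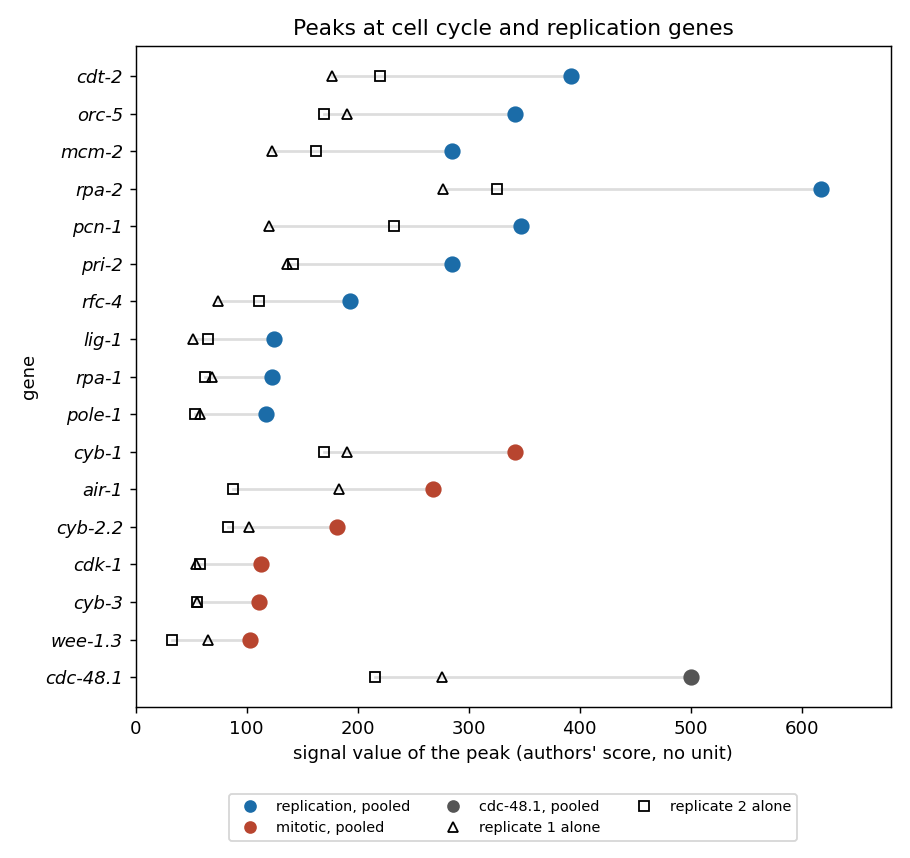
Signal value (the authors' score, linear axis from 0) of the strongest peak at each of the 17 genes, in the pooled main list (filled circles, coloured by role) and of the overlapping candidate in replicate 1 (triangles) and replicate 2 (squares) alone. The highest value is 617.6 at rpa-2, the lowest 102.6 at wee-1.3, and the replicates lie farthest apart in proportion at air-1, wee-1.3 and pcn-1.

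Among the mitotic regulators, 6 of 17 (35.3%) had a peak, against 6.13% of all protein-coding genes. Cyclin B genes made up 3 of these 6. The gene cyb-1 shares the peak of 341.3 with orc-5 and is the farther of the pair. At cyb-2.2 the signal was 181.7, with 101.9 in replicate 1 and 82.79 in replicate 2, and the summit lay at -186 bp. At cyb-3 it was 111.1, with 55.65 in replicate 1 and 55.22 in replicate 2, at -168 bp, and the peak was in neither replicate's own thresholded list. The remaining cyclin B gene, cyb-2.1, had no candidate in its window in the ranked list used for genes without a peak or in either replicate's own list, but it had one of 82.71 in the other pooled ranked list, with a −log10 of the IDR of 1.01. Its window has 68.7% of its bases identical to that of cyb-2.2 in a global alignment. In the window of cyb-2.2, 13.6% of the 36-base words occur elsewhere in the genome, and at its summit 9.09%. The share in the window of cyb-2.1 was smaller than in that of cyb-2.2. Reads from such stretches could have been split or dropped, but whether this affected either gene was not tested. The cyclin A gene cya-1 had a candidate of 41.5 and no peak.

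The mitotic kinases differed among themselves. Aurora A kinase gene air-1 had a signal of 267.6 (chrV:8221272-8221363), from 183.2 in replicate 1 and 88.00 in replicate 2, a ratio of 2.08. Its summit, at -187 bp, lay 15 bp inside the divergent gene cogc-6, in its UTR, and is nearer to the 5' end of cogc-6 than to that of air-1. The gene of Aurora B kinase, air-2, had no pooled candidate, and of the replicates only replicate 2 had one, of 14.70. The gene of the main mitotic kinase, cdk-1, had 112.8 (54.62 and 57.62) at -583 bp, in an intron of the divergent gene iff-1, and in neither replicate's thresholded list. The gene wee-1.3 encodes the kinase that holds CDK-1 inactive, and it had the lowest signal of the 17 genes, 102.6, from 64.76 in replicate 1 and 32.93 in replicate 2, and of the replicates' own thresholded lists that of replicate 1 alone held it. Its summit lay at -302 bp from wee-1.3 and at 3 bp from the 5' end of the piRNA gene 21ur-12807. Its peak is the only one among those of the 17 genes that is missing from the conservative list, and the −log10 of its IDR was 2.29 in the pooled ranked list that holds every main peak and 0.963 in the other, where 2 is the threshold. None of the 4 genes of CDC-25, the phosphatase that activates CDK-1, had a peak, against 6.13% of all protein-coding genes. These 4 genes are too few for the absence of peaks to set them apart from other genes. Of them, cdc-25.1 had a pooled candidate of 51.3 and cdc-25.3 one of 34.0, while cdc-25.2 and cdc-25.4 had candidates in a single replicate only. The polo kinase gene plk-1 (79.55), the spindle checkpoint kinase gene bub-1 (99.4), fzy-1 (22.0), which encodes the CDC20 activator of the anaphase-promoting complex, and the phosphatase gene cdc-14 (31.0) had candidates only. At 3 of the 6 mitotic genes with a peak, cyb-1, cdk-1 and air-1, the summit lay nearer to the 5' end of a divergent gene.

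The paralogues cdc-48.1 and cdc-48.2 encode the AAA ATPase that pulls ubiquitinated proteins out of complexes, among them the spent replisome, and they differed in their peaks. The signal at cdc-48.1 was 500.5, rank 110 in the main list, with 276.0 in replicate 1 and 215.8 in replicate 2 (chrII:10563466-10563660), at -165 bp. At cdc-48.2 the strongest candidate had a signal of 65.1, with 27.17 in replicate 1 and 40.32 in replicate 2. In both replicates cdc-48.1 was thus above cdc-48.2. A global alignment of their windows has 56.0% identical bases, and without unrelated windows aligned for comparison this does not show that they are alike. At the cdc-48.1 summit none of the 36-base words occurs elsewhere in the genome.

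None of the 7 regulators of G1 and S phase had a peak. The cyclin E gene cye-1 came closest, with a candidate of 95.9 at -997 bp, near the edge of the window. The genes of the CDK inhibitors, cki-1 and cki-2, had 64.2 and 76.5, and those of cyclin D, cyd-1, and its kinase, cdk-4, had 23.9 and 52.9. The S phase kinase gene cdk-2 had 24.5, and cdk-7, whose product activates other CDKs, had 34.7. These 7 genes are too few for a count of 0 to set them apart from other genes.

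**Figure D2:**
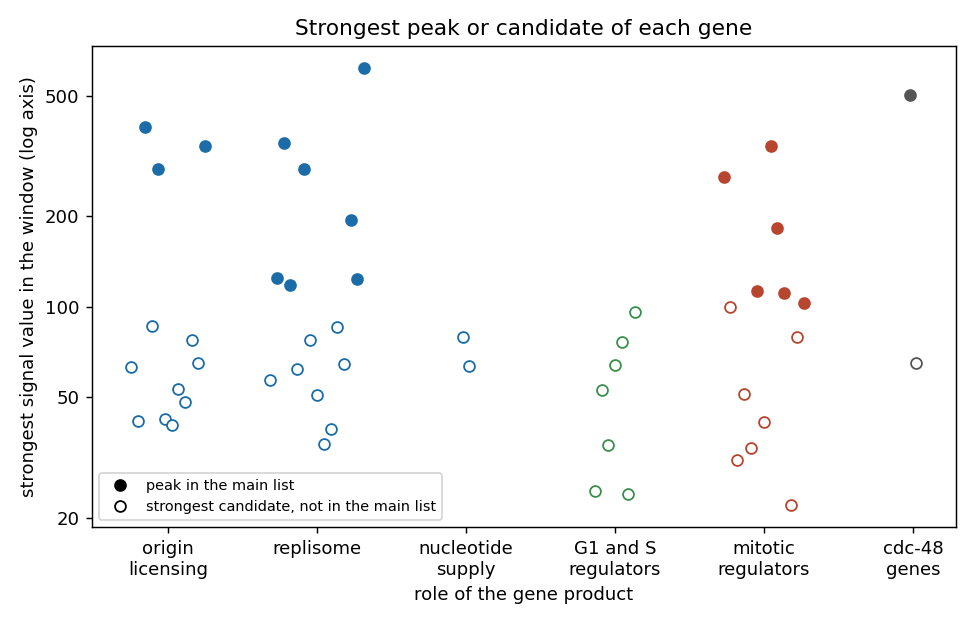
Strongest signal value (log axis) in the window of each gene with a value, by the role of its product. Filled circles are peaks of the main list and open circles the strongest pooled candidates of genes without such a peak. The open circles reach 99.4 (bub-1) and the filled ones begin at 102.6 (wee-1.3). The genes mcm-6, cyb-2.1, cdc-25.2, cdc-25.4 and air-2 have no candidate in the pooled ranked list plotted and are not drawn.

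The replication machinery and the mitotic regulators had peaks at similar shares. In the main list the shares were 10 of 30 (33.3%) and 6 of 17 (35.3%), and in the conservative list, where 6.01% of all protein-coding genes had a peak, they were 10 of 30 (33.3%) and 5 of 17 (29.4%). In the list of replicate 1 they were 9 of 30 and 4 of 17 (23.5%), against 4.3% of all protein-coding genes, and in that of replicate 2 they were 7 of 30 (23.3%) and 3 of 17 (17.6%), against 4.03%. Which of the sets had the larger share thus depended on the list. Pooled signal values were a median of 285.2 for the 10 replication genes (117.5 to 617.6) and 147.2 for the 6 mitotic genes (102.6 to 341.3). The medians in replicate 1 alone were 121.5 and 83.31, and in replicate 2 they were 151.8 and 70.21. Replication genes had the higher median in each case, and the ranges of the pooled values overlapped. No test was made of this difference, and the shared peak of orc-5 and cyb-1 counts in both sets. When each summit was given only to the nearest protein-coding 5' end, 8 replication genes and 3 mitotic regulators kept a peak, as did 4.54% of all protein-coding genes.

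**Figure D3:**
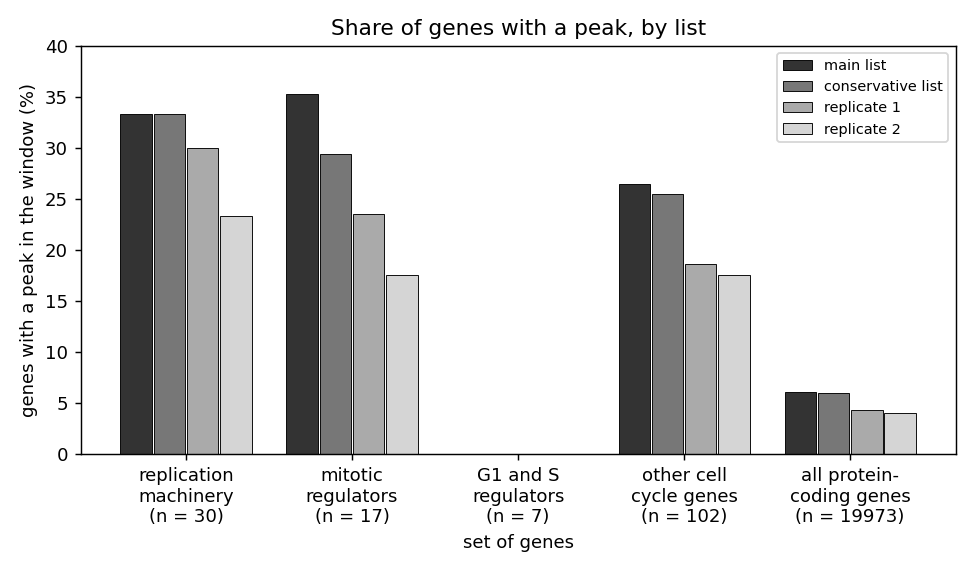
Share of genes (%, bars from 0) with a peak in the window, for the replication machinery, the mitotic regulators, the regulators of G1 and S phase, 102 other cell cycle genes and all protein-coding genes, in each of 4 thresholded lists. The bars of replication and mitotic genes lie between 17.6% and 35.3%, those of all protein-coding genes between 4.03% and 6.13%, and the regulators of G1 and S phase are at 0 in every list.

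A further list of cell cycle and replication genes, written with earlier results of these data known, held 102 other genes of the annotation. Of these, 27 (26.5%) had a main peak, against 6.13% of all protein-coding genes. By role the 27 were 9 of 34 replication genes (26.5%), 15 of 51 mitotic genes (29.4%) and 3 of 17 others (17.6%). The median signal of these replication genes was 142.3 (86.31 to 607.5), and that of these mitotic genes was 222.4 (104.7 to 446.8). This order was the reverse of that among the 56 genes, but the ranges overlapped and no test was made. The mitotic median is the value of cls-2, whose summit lay at -1000 bp, the edge of the window. The replication genes were led by the checkpoint kinase gene chk-1 (607.5), topoisomerase II gene top-2 (280.4) and cul-4 (220.3), the cullin that acts with CDT-2. The others were clsp-1 (159.7, claspin), tim-1 (142.3), the polymerase alpha gene pola-1 (122.5), the helicase gene him-6 (100.7), the histone chaperone gene chaf-1 (90.4) and ctf-4 (86.3). Mitotic genes were led by the condensin gene kle-2 (446.8), emb-1 (387.9), a subunit gene of the anaphase-promoting complex, and the kinesin gene zen-4 (379.2). After them came the shugoshin gene sgo-1 (274.9), emb-27 (234.2), czw-1 (227.6), sas-4 (223.4), cls-2 (222.4), the checkpoint gene mdf-2 (167.6), the condensin gene hcp-6 (163.9), rod-1 (149.4), zyg-1 (131.4), the cohesin gene smc-3 (123.3), such-1 (120.0) and tpxl-1 (104.7). The 3 others were the cyclin C gene cic-1 (1272), whose product acts in transcription, and lin-35 (156.5) and efl-1 (88.5), the worm's Rb and an E2F. Most of the 27 peaks also lay in the window of another gene, and some lay far from the named gene. For example, the summits were at -694 bp from kle-2, -757 bp from emb-1 and -695 bp from sas-4. A shared peak cannot be given to 1 gene from its position.

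Summits at the 17 genes lay at a median of -247 bp from the annotated 5' end, from -638 bp at rpa-2 to 75 bp at cdt-2, and 16 of 17 were upstream. The median over the 1225 protein-coding genes with a peak was the same, -247 bp. Of the 17 genes, 10 (58.8%) had the summit within 300 bp upstream, against 48.3% of the 1225. Outside protein-coding genes lay 13 of the 16 peaks (81.2%), against 74.2% of the 985 main peaks in protein-coding windows, with 2 in a UTR (cdt-2 and air-1) and 1 in an intron (cdk-1). Protein-coding windows on both strands held 8 of the 16 peaks, against 29.1% of the 985. The divergent partners of these were cyb-1 for orc-5, T01C3.2 for cdt-2, W02D9.2 for pri-2, eef-1A.1 for rfc-4, F18A1.7 for rpa-1, C29A12.1 for lig-1, T06E6.1 for cyb-3 and cogc-6 for air-1. Such a peak cannot be given to either gene from its position.

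**Figure D4:**
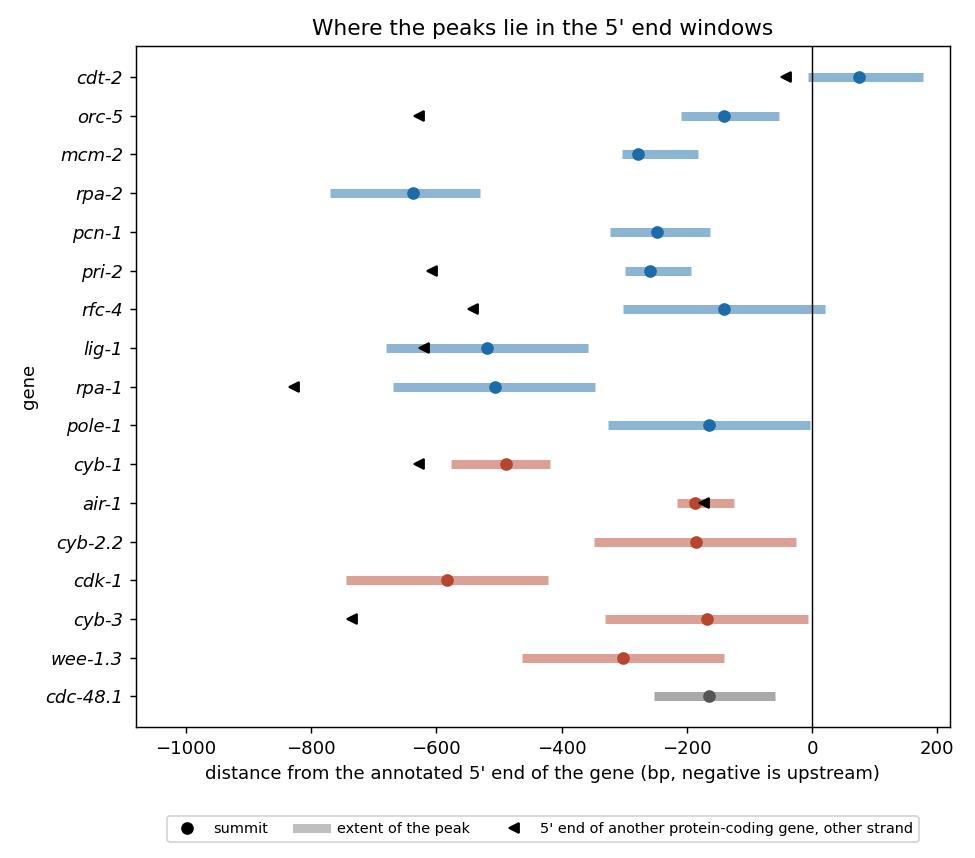
Place of the strongest peak at each of the 17 genes: distance in bp from the annotated 5' end (vertical line, negative is upstream), with the extent of the peak as a bar, its summit as a circle, and the 5' end of another protein-coding gene on the other strand, where its window holds the summit, as a triangle. Summits run from -638 bp (rpa-2) to 75 bp (cdt-2), and 9 genes have a triangle.

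The members were also sorted by their upstream neighbour. Of the 56 genes, 6 follow another protein-coding gene on the same strand at a gap of at most 500 bp (mcm-4, mcm-5, orc-2, gmn-1, rfc-3 and rnr-1), and none of these had a peak. Going upstream through such close neighbours to the first gene of each run also gave no main peak at any of the 6 first genes. Of the 39 genes with a divergent upstream neighbour, 12 (30.8%) had a peak, and of the 11 with a same-strand neighbour farther away, 5 (45.5%). Over all protein-coding genes the shares were 6.99% for close same-strand neighbours, 7.86% for divergent ones and 3.20% for the rest. No test was made of these shares. The 6 members with a close neighbour, like the 6 first genes, are too few for the absence of peaks to set them apart.

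At all 16 peaks both replicates had an overlapping candidate, with summits a median of 15.5 bp apart (1 to 68 bp). Candidates were taken only where they overlap a pooled peak that passed a reproducibility threshold. This selection limits how far apart the summits can lie. How much of the closeness comes from it was not tested, and the distance was not computed for other peaks. The signal of replicate 2 divided by that of replicate 1 had a median of 1.02 (0.480 to 1.95), and it was within a factor of 1.5 at 13 of 16 peaks (81.2%). Over the 969 main peaks in protein-coding windows with a candidate in both, the median ratio was 1.03 (0.163 to 4.10) and 775 were within that factor, a share close to that of the members. The 3 exceptions were pcn-1, higher in replicate 2, and air-1 and wee-1.3, higher in replicate 1. In the thresholded lists of both replicates were the peaks of 10 genes: mcm-2, orc-5, cdt-2, pcn-1, rfc-4, rpa-2, cyb-1, cyb-2.2, air-1 and cdc-48.1. The list of replicate 1 held 14 of the 17 genes (25.0% of the 56), against 4.3% of all protein-coding genes. That of replicate 2 held 11 (19.6%), against 4.03%, while cdk-1 and cyb-3 were in neither. Of the 16 peaks, 9 (56.2%) overlapped a peak in both lists, against 46.7% of the 985 main peaks in protein-coding windows. The shares in neither list were 12.5% and 23.4%. The threshold was set separately for each list, so a missing peak may still have signal.

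Genes without a main peak numbered 39, of which 34 had a pooled candidate with a median signal of 55.4 (22.0 to 99.4). The median over the 10991 protein-coding genes without a main peak and with a candidate was 41.8. The threshold is on the IDR and not on the signal. By signal the highest of these genes were bub-1 at 99.4 (58.03 in replicate 1), cye-1 at 95.9 (43.81 in replicate 1 and 38.63 in replicate 2) and gmn-1 at 85.9 (59.21 and 27.18). In replicate 2 the strongest candidate in the bub-1 window, 47.39, lay at -967 bp, away from the pooled candidate at -158 bp. The lowest genes with a main peak were wee-1.3 at 102.6, cyb-3 at 111.1 and cdk-1 at 112.8. In the pooled ranked list that holds every main peak, the nearest by IDR were gmn-1, with a −log10 of 1.91, bub-1 with 1.85 and plk-1 with 1.73, against a threshold of 2. In the list used for genes without a peak, whose IDR does not set the main list, they were plk-1 with 1.87, rfc-2 with 1.85 and psf-1 with 1.77, and gmn-1 had 0.446. At the other end were fzy-1 at 22.0, cyd-1 at 23.9 and cdk-2 at 24.5. Of the 5 genes with no candidate in the list used for genes without a peak, mcm-6 had one of 37.24 and cdc-25.4 one of 28.18 in replicate 1 alone, cdc-25.2 one of 40.06 and air-2 one of 14.70 in replicate 2 alone, while cyb-2.1 had none in either replicate and 82.71 in the pooled ranked list that holds every main peak. A missing peak shows that none passed the authors' threshold, not that the protein was absent.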

How the data were processed

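ChIP-seq peaks on genome build ce11 were analysed in the form the authors deposited them. There is a ranked list of candidates and a thresholded list per replicate, and for both replicates 2 ranked lists, the main thresholded list and a conservative one. The notes deposited with the files trace the pooled lists to the alignments of both replicates and to a file that also enters their tracks of fold change over control. The aligner is not given in the sources used here, nor is the peak caller. As no read counts were used, the depth of each replicate is unknown. In the deposited lists each peak has a signal value, the offset of its summit and an integer score, at least 830 in the main list (an IDR of 0.01). The deposited ranked lists give the −log10 of the IDR. A pooled signal value is close to both replicates' values added up, and sizes are therefore compared within a list only.

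The main list held 2228 peaks, the conservative list 2171, the list of replicate 1 1358 and that of replicate 2 1200. The ranked list used for genes without a peak (93476 candidates) holds 2214 of the main peaks. The other pooled ranked list (93610) holds all 2228, and IDR values between the replicates come from the first. Genes came from Ensembl release 115 of WBcel235, and all peaks lie inside the RefSeq chromosomes of that assembly. Windows ran from 1000 bp upstream to 200 bp downstream of the 5' end of the gene. A replicate's value at a pooled peak is its strongest candidate that overlaps it by at least 1 bp. For a gene without a main peak, a replicate's value is its strongest candidate in the window, which may lie away from the pooled candidate. Python 3.11.15 and matplotlib 3.10.9 were used, and the assignment of summits was tested on 200 planted peaks, all recovered as planted.

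Members, their roles, the list of other genes (110 written, 102 with that name in the annotation) and the sequences searched for were chosen with earlier results of these data known, so lists are described by counts and medians and were not tested. Every gene with a main peak is named. Without one, the 3 strongest and 3 weakest candidates of each role and every gene with no candidate were to be named, and the remaining members were added. Alternatives were the conservative list, each replicate's list, the stronger 50% of peaks, windows of 500 and 2000 bp, 5' ends of any transcript, the nearest 5' end and any overlap.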

Additional observations from a re-analysis of the deposited data

How the results depend on the processing

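In the main list 17 member genes had a peak (30.4% of the 56), against 6.13% of all protein-coding genes. In the stronger 50% of peaks the count was 11 (19.6%), against 3.97%. It ranged from 11 to 14 when a replicate was left out. The 11 genes, the list of replicate 2, came without replicate 1, and 4.03% of all protein-coding genes then had a peak. Under the other alternatives the count lay between 12 (nearest 5' end, 21.4% against 4.54%) and 19 (window of 2000 bp, 33.9% against 8.20%). A window of 2000 bp added cdk-7 and cya-1. The 10 replication genes became 7 to 9 without a replicate. The 6 mitotic regulators became 3 in the stronger 50% of peaks, 3 with the nearest 5' end, and 3 to 4 without a replicate, the 3 being those of replicate 2. The median signal of 267.6 was 341.3 in the stronger 50% of peaks, 193.1 with a window of 2000 bp and, on the lower scale of a single replicate, 121.5 to 169.8. The 27 other cell cycle genes became 17 with the nearest 5' end and 18 to 19 without a replicate. The stronger 50% holds fewer peaks by construction. The lists of single replicates were thresholded separately and also hold fewer peaks. With the nearest 5' end the members lost were air-1, cdk-1, cyb-1, lig-1 and rpa-1, whose summits lie nearer to the 5' end of another protein-coding gene. A window of 2000 bp contains the main window, so it can only add genes. The cause of the other changes was not tested. No paired analysis was possible because there is 1 group. Depth is unknown, so how many peaks it hides cannot be given.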
